A study of Mus musculus with 6 samples.

Results

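Interferon-stimulated genes are the genes that cells switch on after interferon binds its receptors at the cell surface. A list of 43 of them was looked up by symbol in a table of 17428 mouse genes. All 43 were present, with *Herc6* under its older symbol *Herc5*. The table came from EpH4, a line of mouse mammary epithelial cells used as a model of epithelial to mesenchymal transition. E cells were the untreated epithelial cells, M cells had received transforming growth factor β1 (TGFβ1) in their medium for 7 days, and RE cells had been treated in the same way and then kept in normal medium for another 4 days. Each stage had 2 libraries, and all stages were grown with serum, antibiotics and insulin. The protocols name no added interferon, all libraries came from 1 line, and no culture of the same age without TGFβ1 was included. The comparisons are E vs. M (the response to TGFβ1), M vs. RE (the change after its removal) and E vs. RE (the difference between the starting cells and the reverted cells). RNA came from biological replicas, but the material behind each library is not described further, so p-values measure only the spread between these libraries, which may be partly technical.

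Type I and type III interferons activate the kinases Jak1 and Tyk2, and these phosphorylate Stat proteins. Stat2 and Irf9 are parts of the complex ISGF3, which binds the interferon-stimulated response element (ISRE) in the promoters of its targets. Interferon gamma signals through a different receptor and the gamma-activated sequence (GAS), and switches on *Irf1* among other genes. In epithelia many of these genes are also held at a low basal level without infection. Their products sense foreign RNA and DNA, degrade or sequester viral RNA, tag proteins with the ubiquitin-like protein Isg15, or attack membranes around intracellular microbes.

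The deposited values were coverage, the summed number of sequenced bases in each gene, and are given here as ppm, a level's part of the library total after scaling between libraries. Libraries held between 35782513 and 47928557 reads' worth of 50 bases. Of the 43 genes, 42 had at least 500 bases in at least 2 libraries and were tested, 39 of them with that coverage in every library. *Oas1a* reached it in 1 library, with 5 to 13 reads' worth per library, and was not tested. A gene was called when limma, fitted across all 13893 tested genes, gave an adjusted p below 0.01 and a difference of more than 1 on the log2 scale in either direction. The E libraries differed more from each other than the others did, with a standard deviation of their log2 differences over genes of 0.558 against 0.318 in M and 0.309 in RE. The summed level of 6 epithelial markers was 1514 to 1860 ppm in E, 1305 to 1345 in M and 845 to 893 in RE, with *Krt18* the largest part in E. Its members differed. *Epcam* (means of 313, 130 and 132 ppm in E, M and RE) and *Cldn7* (124, 33.5 and 49.5) were called lower than E in both M and RE. *Krt18* (745, 569 and 291) was called lower in RE than in E. *Krt8* was 1.58-fold higher in M than in E, which was not called, and was called lower in RE than in M. *Cdh1* was close in all stages (302, 274 and 269), and *Krt19* was near the floor in every library, at up to 0.162 ppm. Of 6 blood cell markers, the summed level was 6.87 to 10.6 ppm in E, 33.2 to 37.04 in M and 7.47 to 7.61 in RE. *Csf1r* made up most of the M value, at 25.8 and 29.9 ppm, and *Cd68* was at 5.17 to 9.18 ppm in all libraries. *Itgam* was at up to 0.0521 ppm in E and at 0.144 to 0.204 in M and RE. *Ptprc*, *Cd3e* and *Emr1* were at or near 0 in all stages. The sum of 3 endothelial markers was 0.37 to 0.49 ppm in E, 2.67 to 2.69 in M and 0.43 to 0.49 in RE. *Cdh5* made up most of the M value, at 0 in E and at 2.33 and 2.07 ppm in M. *Pecam1* was not called (means of 0.208, 0.346 and 0.312 ppm in E, M and RE). *Tek* was not tested and its mean was highest in E (0.222, 0.133 and 0.0842 ppm). The part of other cells in the results below was not tested, and in bulk RNA fewer cells of a type and less RNA per cell cannot be told apart.

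The response to TGFβ1 was split. In E vs. M, 14 of the 42 tested interferon-stimulated genes were called, where 17.0% of all tested genes were. Of these, 9 rose in M (8.58% of all genes did), namely *Ifi44*, *Parp14*, *Samd9l*, *Oasl2*, *Dtx3l*, *Gbp3*, *Zbp1*, *Parp9* and *Parp12*. The other 5 fell (8.39% of all genes did), namely *Oas3*, *Ifit3*, *Ifit1*, *Oasl1* and *Isg15*. With scaling by library totals alone, which moved the median log2 difference of all genes to −0.29, the split was 5 higher and 6 lower, while the share of higher calls among all called genes went from 50.6% to 30.5%. Under that scaling *Parp9*, *Parp12*, *Zbp1* and *Gbp3* were no longer called and *Ifit2* was.

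After TGFβ1 was removed, 9 of the 42 genes were called in M vs. RE, against 12.9% of all genes. Higher in RE were 7 of them (8.08% of all genes were), *Iigp1*, *Ifit3*, *Irf7*, *Ifit2*, *Irf1*, *Mx2* and *Ifit1*, and lower were 2 (4.79% of all genes were), *Ifi44* and *Oasl2*. In E vs. RE, 5 of 42 genes were called, against 9.37% of all genes. *Irf1*, *Lgals3bp*, *Ddx58* and *Parp14* were the 4 genes higher in RE than in E (6.20% of all genes were), and *Oasl1* was the 1 gene lower (3.17% of all genes were). As shares, 33.3%, 21.4% and 11.9% of the 42 tested genes passed in these 3 comparisons, furthest above the share of all genes in the first. The median log2 fold change of the 42 genes was 0.20 between E and M, 0.18 between M and RE and 0.50 between E and RE, where that of all genes was 0.0013, −0.017 and 0.0079. Libraries of the 2 stages did not overlap in 34, 37 and 34 of the 42 genes in these comparisons. Of all tested genes, 70.6%, 78.1% and 66.7% did not, so with 2 libraries a stage a lack of overlap was common.

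**Figure D1:**
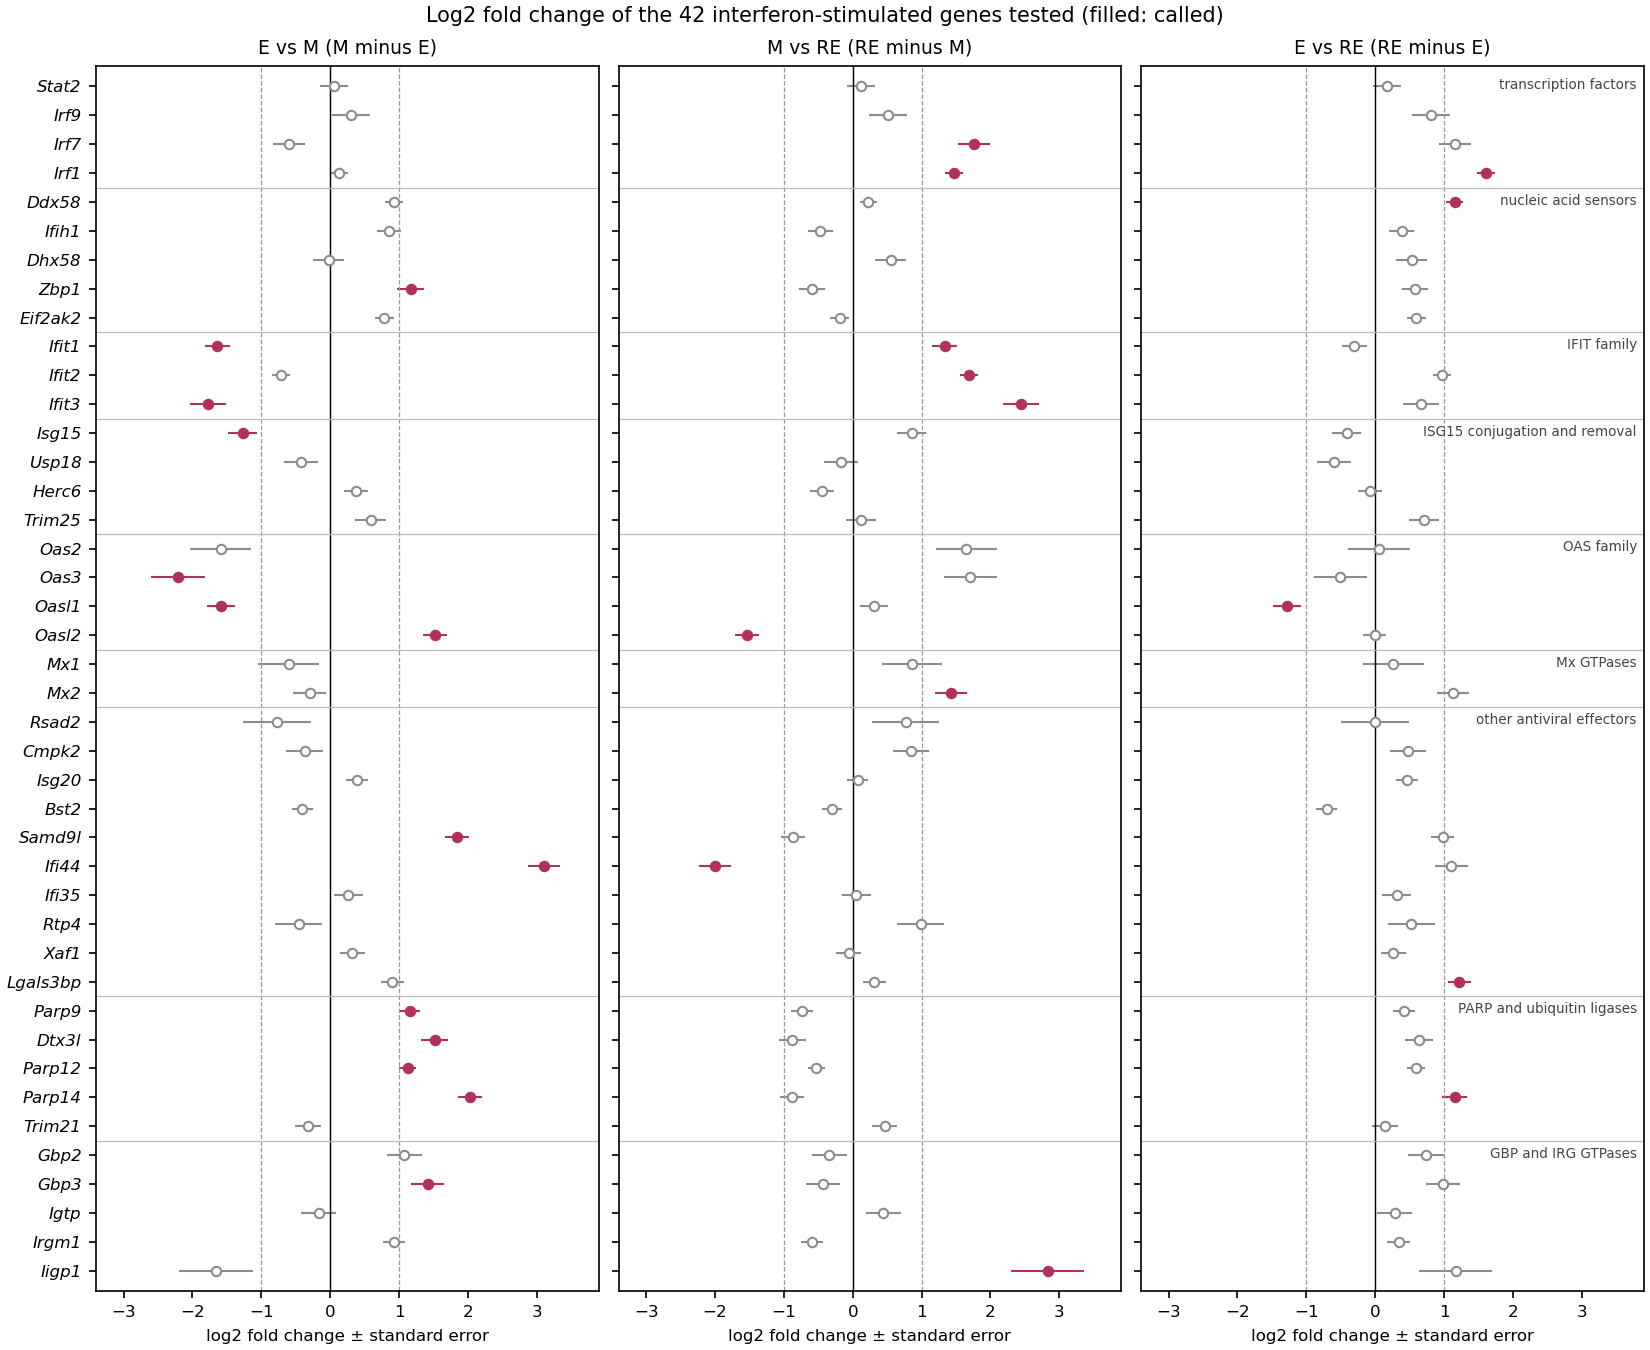
Log2 fold change (horizontal axis) of each of the 42 tested interferon-stimulated genes (vertical axis, grouped by role), with 1 panel for each comparison; points are limma estimates, filled where called, bars are standard errors and dashed lines mark the fold limit. The genes spread to both sides of 0 in M, from *Ifi44* at 3.10 to *Oas3* at −2.21, and the called genes after removal lie mainly above 0 in RE.

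Promoters with the letters of an ISRE were found among the genes that fell in M more than among those that rose, in small numbers. RefSeq promoter windows (build GRCm38.p6, from 250 bases before to 50 bases after the start site) were given for 33 of the 43 genes and were searched on both strands for GAAA, any 2 bases, then GAAA, the core of an ISRE. A match was found in 16 of the 33 (48.5%), where 3.99% of 27025 genes with a window held one. Of the 5 genes that fell in M, 4 had a match, and of the 6 genes with a window that rose, 1 did. Stretches of 30 bases around the matches are shown for these genes and for *Ddx58*, which rose in RE, and are read 5′ to 3′ on the strand of the gene with the matching letters in capitals.
Isg15: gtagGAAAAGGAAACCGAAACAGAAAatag
Ifit1: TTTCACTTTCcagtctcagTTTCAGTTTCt
Ifit3: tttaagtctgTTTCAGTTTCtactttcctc
Oas3: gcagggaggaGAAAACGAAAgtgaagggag
Gbp3: gacacagTTTCAGTTTCTATTTCccagatc
Ddx58: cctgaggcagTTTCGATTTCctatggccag
The *Isg15* stretch, at chr4:156200871-156200900 on the minus strand, held 3 overlapping matches. The *Ifit1* stretch lay at chr19:34640785-34640814 and the *Ifit3* stretch at chr19:34583397-34583426, both on the plus strand. The window of *Ifit3* held 2 matches, of which only the match nearest the start site is shown. The *Oas3* stretch lay at chr5:120777715-120777744 on the minus strand, the *Gbp3* stretch at chr3:142559992-142560021 on the plus strand, and the *Ddx58* stretch at chr4:40239804-40239833 on the minus strand. No match was found in the windows of *Oasl1*, which fell in M, or of *Oasl2*, *Samd9l*, *Ifi44*, *Dtx3l* and *Parp12*, which rose. A match is a run of letters and not a binding site, and no window was given for *Zbp1*, *Parp9* and *Parp14*.

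The GAS core, TTC, any 3 bases, then GAA on either strand, was found in 8 of the 33 windows (24.2%), against 9.55% of the genes with a window. The windows of *Irf1* and *Ifit2*, which both rose in RE, held one. So did those of *Eif2ak2*, *Isg20*, *Bst2*, *Ifi35* and *Igtp*, which were not called in any comparison, and of *Oas1a*, which was not tested. Of the 5 genes with a window that were called higher in RE than in M, 2 held a GAS core and 2 an ISRE core. The *Irf1* stretch, at chr11:53769914-53769943 on the plus strand, is shown because *Irf1* is the best known target of this element, and it was chosen after the values were seen.
Irf1: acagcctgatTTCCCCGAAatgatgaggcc

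Of the transcription factors, *Irf1* and *Irf7* rose in RE. *Irf1*, which binds ISRE-like sequences and is itself induced by interferon gamma, was at 75.1 and 69.8 ppm in the E libraries, 80.1 and 78.8 in M, and 234 and 208 in RE. Both RE libraries stood far above the other 4, and E and M were close. The log2 fold change was 1.47 in M vs. RE (SE 0.13, adjusted p = 0.00017 by limma) and 1.61 in E vs. RE (SE 0.13, adjusted p = 0.000418 by limma), a 2.78-fold and a 3.05-fold higher level in RE. In E vs. M it was 0.13 (SE 0.13, adjusted p = 0.432 by limma). *Irf7*, the factor that amplifies type I interferon production, was at 3.57 and 2.76 ppm in E, 2.06 and 2.02 in M, and 8.31 and 6.14 in RE. *Irf7* was lowest in M and highest in RE, with no overlap between stages. Its log2 fold change was 1.76 in M vs. RE (SE 0.24, adjusted p = 0.00137 by limma), and 1.16 in E vs. RE, which missed the threshold (SE 0.24, adjusted p = 0.0105 by limma).

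The ISGF3 components *Stat2* and *Irf9* were not called in any comparison. *Stat2* was at 19.7 and 27.6 ppm in E, 25.3 and 23.2 in M, and 29.9 and 23.2 in RE, so that the 3 stages overlapped. *Irf9*, which gives ISGF3 its DNA contact, was at 5.64 and 8.63 ppm in E, 8.92 and 8.33 in M, and 15.4 and 9.92 in RE. Its RE libraries were the highest 2 but lay far apart, and the log2 fold change in E vs. RE was 0.82 (SE 0.28, adjusted p = 0.0589 by limma).

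*Ifi44* and *Samd9l* rose in M. *Ifi44*, an antiviral protein also linked to slower cell growth, was at 1.62 and 2.19 ppm in the E libraries, 16.0 and 18.0 in M, and 4.89 and 3.56 in RE. M stood 8.92-fold above E (log2 fold change 3.10, SE 0.24, adjusted p = 8.28e-05 by limma) and RE 4.03-fold below M (log2 fold change −2.0, SE 0.24, adjusted p = 0.000791 by limma). The RE level stayed above both E libraries, at a log2 fold change of 1.11 that was not called (SE 0.24, adjusted p = 0.0129 by limma). *Samd9l*, an antiviral factor that also restrains growth, was at 55.4 and 44.5 ppm in E, 194 and 164 in M, and 108 and 88.9 in RE. The stages did not overlap, and RE lay between the other two. M was 3.58-fold above E (log2 fold change 1.84, SE 0.17, adjusted p = 0.0002 by limma), and the log2 fold change of −0.86 in M vs. RE passed the limit on the adjusted p but not that on the fold (SE 0.17, adjusted p = 0.00792 by limma).

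Poly-ADP-ribose polymerase family members rose together in M. *Parp14*, *Dtx3l* and *Parp9* follow each other in the RefSeq gene order, and the proteins Parp9 and Dtx3l, the latter a ubiquitin ligase, work as a complex. *Parp14*, a mono-ADP-ribosyltransferase, was at 21.4 and 28.0 ppm in E, 106 and 94.9 in M, and 59.9 and 49.7 in RE. It was 4.07-fold higher in M than in E (log2 fold change 2.03, SE 0.18, adjusted p = 0.000151 by limma). It was the 1 gene that rose in M and was still called in E vs. RE, at a log2 fold change of 1.15 (SE 0.18, adjusted p = 0.00368 by limma). *Dtx3l* was at 24.4 and 37.1 ppm in E, 90.2 and 82.5 in M, and 48.6 and 45.4 in RE. *Parp9* was at 64.6 and 53.1 ppm in E, 142 and 120 in M, and 80.6 and 76.1 in RE. In both genes M was highest and RE lay between M and E without overlap. The E vs. M log2 fold changes were 1.51 for *Dtx3l* (SE 0.20, adjusted p = 0.00105 by limma) and 1.15 for *Parp9* (SE 0.15, adjusted p = 0.00109 by limma). *Parp12*, another mono-ADP-ribosyltransferase, encoded elsewhere in the genome, was at 71.2 and 65.8 ppm in E, 154 and 145 in M, and 105 and 101 in RE. The log2 fold change between E and M was 1.12 (SE 0.12, adjusted p = 0.000451 by limma), and the order of the stages was the same as for its relatives. With scaling by library totals, *Parp14* and *Dtx3l* remained called in E vs. M and *Parp9* and *Parp12* did not.

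Sensors of foreign nucleic acid mostly had their lowest level in E. *Zbp1*, which recognises nucleic acid in the Z form, was at 5.50 and 4.23 ppm in E, 11.7 and 10.3 in M, and 7.35 and 7.18 in RE. M was the highest stage and RE lay between, with a log2 fold change of 1.17 in E vs. M (SE 0.19, adjusted p = 0.00281 by limma). *Ddx58*, the RNA helicase RIG-I, was at 108 and 100.4 ppm in E, 194 and 201 in M, and 244 and 221 in RE. Here the mean was highest in RE and not in M, but the log2 fold change of 0.23 in M vs. RE was not called (SE 0.13, adjusted p = 0.211 by limma). The log2 fold change was 0.92 in E vs. M, short of the fold limit (SE 0.13, adjusted p = 0.00123 by limma), and 1.15 in E vs. RE, which was called (SE 0.13, adjusted p = 0.00113 by limma). *Ifih1*, the related sensor MDA5, had log2 fold changes of 0.85 in E vs. M (SE 0.18, adjusted p = 0.00766 by limma) and 0.38 in E vs. RE, and was at 8.86 and 8.05 ppm in E, 15.9 and 14.8 in M, and 12.4 and 9.82 in RE. *Eif2ak2*, the RNA-activated kinase PKR that halts translation, had a log2 fold change of 0.78 in E vs. M (SE 0.13, adjusted p = 0.00331 by limma), below the fold limit. *Dhx58*, which modulates both helicases, was between 3.96 and 7.21 ppm in all libraries and was not called.

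The Ifit genes, whose proteins bind viral RNA, and *Isg15* moved the other way. *Ifit1* was at 10.9 and 12.5 ppm in the E libraries, 3.92 and 3.46 in M, and 10.2 and 8.77 in RE. *Ifit3* was at 1.99 and 2.05 ppm in E, 0.549 and 0.495 in M, and 3.95 and 2.71 in RE. *Ifit2* was at 37.6 and 40.2 ppm in E, 24.1 and 23.2 in M, and 78.9 and 73.7 in RE. For all 3 genes both M libraries were the lowest, while RE was highest for *Ifit2* and *Ifit3* and closest to E for *Ifit1*. *Ifit1* was 3.18-fold lower in M than in E (log2 fold change −1.64, SE 0.18, adjusted p = 0.000476 by limma) and rose again in RE (log2 fold change 1.34, SE 0.18, adjusted p = 0.00152 by limma). *Ifit3* was 3.87-fold lower in M than in E (log2 fold change −1.77, SE 0.26, adjusted p = 0.00173 by limma) and 6.38-fold higher in RE than in M (log2 fold change 2.44, SE 0.26, adjusted p = 0.000489 by limma). *Ifit2* had a log2 fold change of −0.71 in E vs. M, which missed the fold limit (SE 0.13, adjusted p = 0.00414 by limma), and rose in RE by 1.69 over M (SE 0.13, adjusted p = 9.25e-05 by limma). *Ifit2* and *Ifit3* are neighbours, and since reads were mapped uniquely, coverage of near-identical relatives such as the Ifit, Oas and Gbp genes is uncertain where they share sequence.

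*Isg15*, the ubiquitin-like protein that is attached to others, was at 4.07 and 4.84 ppm in E, 1.68 and 1.88 in M, and 3.47 and 3.16 in RE. M was lowest and RE lay below E, without overlap. The log2 fold change was −1.27 in E vs. M (SE 0.21, adjusted p = 0.00284 by limma) and 0.86 in M vs. RE, which was not called (SE 0.21, adjusted p = 0.0189 by limma). The genes that attach and remove Isg15 gave no call. *Usp18*, which removes it, was at 3.71 and 3.51 ppm in E, 2.67 and 2.65 in M, and 2.88 and 1.91 in RE. *Herc6*, its ligase in the mouse, ranged from 35.0 to 55.3 ppm over the libraries, and *Trim25*, a ubiquitin ligase that acts with RIG-I, from 31.9 to 68.7 ppm.

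Oligoadenylate synthetases make the second messenger that activates RNase L, and this family held changes in both directions. *Oas3* was at 5.54 and 6.66 ppm in E, 1.56 and 0.977 in M, and 6.31 and 2.86 in RE. Both M libraries were lowest, but the RE libraries lay far apart and spanned E in part. M was 4.82-fold below E (log2 fold change −2.21, SE 0.39, adjusted p = 0.00355 by limma), and the log2 fold change of 1.71 in M vs. RE was not called (SE 0.39, adjusted p = 0.0138 by limma). *Oas2*, its neighbour, was at 0.178 and 0.503 ppm in E, 0.024 and 0.0485 in M, and 0.334 and 0.319 in RE. Both M libraries were at the floor of 3 reads' worth. The E mean was 4.71-fold and the RE mean 4.51-fold above that floor. These means rest on few reads, and the E libraries, with 7.68 and 19.3 reads' worth, lay 2.83-fold apart. The fitted differences were not called (adjusted p = 0.0248 and 0.0274 by limma).

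The adjacent genes *Oasl1* and *Oasl2*, which encode relatives of these enzymes, moved in opposite directions. *Oasl1*, whose protein limits translation of *Irf7*, was at 11.2 and 11.3 ppm in E, 4.12 and 3.27 in M, and 4.14 and 5.02 in RE. E stood above both other stages, and the highest M library lay just below the lowest RE library. *Oasl1* was 3.04-fold lower in M than in E (log2 fold change −1.59, SE 0.20, adjusted p = 0.000866 by limma) and still 2.45-fold lower in RE than in E (log2 fold change −1.28, SE 0.20, adjusted p = 0.00406 by limma). *Oasl2* was at 8.43 and 7.90 ppm in E, 26.0 and 21.5 in M, and 8.60 and 7.64 in RE. Only its M libraries stood apart, and E and RE overlapped. *Oasl2* rose 2.91-fold in M (log2 fold change 1.52, SE 0.17, adjusted p = 0.00049 by limma) and fell in RE by 1.53 on the log2 scale (SE 0.17, adjusted p = 0.000585 by limma). The difference between RE and E was −0.01 on the log2 scale (adjusted p = 0.971 by limma).

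**Figure D2:**
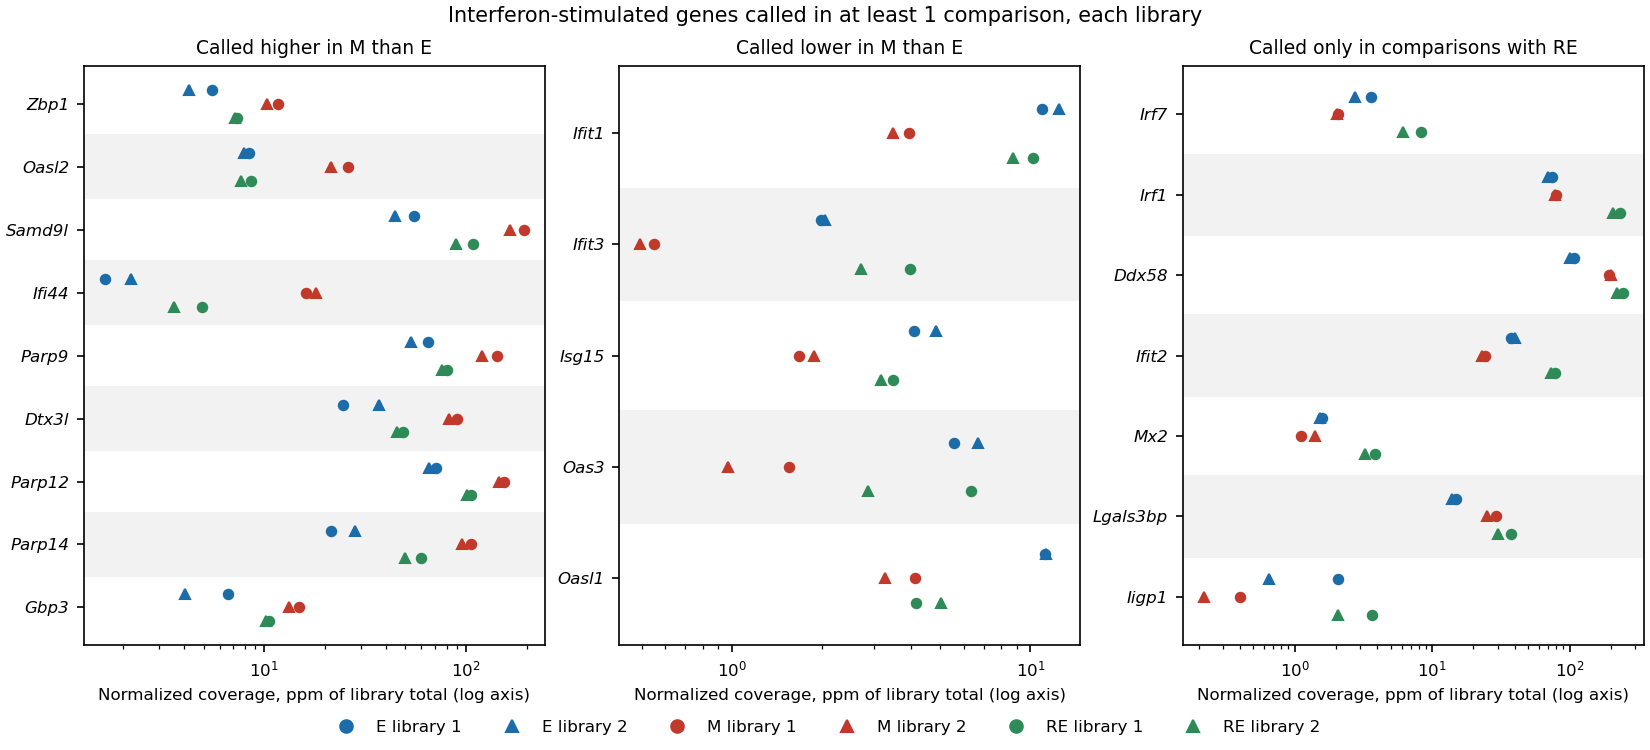
Level in each library (ppm, log axis) of the interferon-stimulated genes called in at least 1 comparison, with 1 point per library, in 3 panels for genes called higher in M, lower in M, or only in comparisons with RE. *Ifi44* and *Samd9l* peak in M, *Ifit1* and *Ifit3* dip there, and *Irf1* is at 69.8 to 80.1 ppm in E and M and at 208 and 234 ppm in RE.

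The interferon-inducible GTPases, which act on the membranes around microbes or on viral particles, also differed among themselves. *Gbp3*, a guanylate-binding protein, was at 6.63 and 4.06 ppm in E, 14.8 and 13.3 in M, and 10.6 and 10.2 in RE. It was 2.62-fold higher in M than in E (log2 fold change 1.41, SE 0.24, adjusted p = 0.00319 by limma), and RE lay between without overlap. *Gbp2* was at 44.8 and 24.4 ppm in E, 67.4 and 72.4 in M, and 54.0 and 56.4 in RE, and with this spread in E its log2 fold change of 1.08 in E vs. M was not called (SE 0.26, adjusted p = 0.0133 by limma). *Iigp1*, of the immunity-related GTPases, was at 2.05 and 0.646 ppm in E, 0.404 and 0.218 in M, and 3.65 and 2.06 in RE. M was lowest, and the E libraries lay far apart. RE was 9.18-fold above M (log2 fold change 2.83, SE 0.53, adjusted p = 0.0064 by limma), a call that was lost when low genes were kept in the test. *Irgm1*, of the same family, had a log2 fold change of 0.93 in E vs. M, under the fold limit (SE 0.16, adjusted p = 0.0036 by limma), and *Igtp* was not called.

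*Mx2*, a dynamin-like antiviral GTPase, was at 1.58 and 1.54 ppm in E, 1.11 and 1.41 in M, and 3.82 and 3.27 in RE. Both RE libraries stood above the other 4. Its log2 fold change was 1.43 in M vs. RE (SE 0.24, adjusted p = 0.00348 by limma) and 1.13 in E vs. RE, which was not called (SE 0.24, adjusted p = 0.0116 by limma). *Mx1*, its relative, was between 0.0479 and 0.282 ppm and not called. *Lgals3bp*, a secreted galectin-binding glycoprotein, was at 14.9 and 13.9 ppm in E, 29.1 and 25.2 in M, and 37.6 and 30.1 in RE. E was lowest, and RE was 2.35-fold above it (log2 fold change 1.22, SE 0.17, adjusted p = 0.00241 by limma).

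No call was made for *Rsad2* (viperin), its neighbour *Cmpk2*, a nucleotide kinase, *Isg20*, an RNA exonuclease, *Bst2* (tetherin), *Ifi35*, *Rtp4*, *Xaf1* or *Trim21*. *Bst2*, which holds budding virus at the cell surface, was at 75.0 and 58.7 ppm in E, 50.2 and 50.05 in M, and 41.3 and 40.05 in RE. The stages did not overlap, and the log2 fold change in E vs. RE was −0.70 (adjusted p = 0.0132 by limma). *Cmpk2* was at 2.45 and 1.78 ppm in E, 1.61 and 1.58 in M, and 3.47 and 2.51 in RE, and its log2 fold change in M vs. RE was 0.85 (adjusted p = 0.0448 by limma). *Rsad2* was at 0.587 and 1.96 ppm in E, a spread that covered every other library but the lower M library.

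By stage, the highest mean was in RE for 19 of the 42 tested genes, in M for 15 and in E for 8. These counts include genes that were not called, and they were not set against those of all genes. They also depend on scaling: with library totals alone, the log2 fold change in M vs. RE changed sign for *Eif2ak2*, *Usp18* and *Xaf1*. Of the 9 genes that rose in M, 8 had an RE mean between those of E and M, and in the other, *Oasl2*, the RE mean was within the range of E. Levels per kilobase, over all exons of a gene merged, allow only a rough comparison of genes, since the annotation behind the coverage is not known. On this scale *Bst2* had the highest E level at 74.0 ppm per kb, followed by *Irf1* at 18.2, *Parp12* at 17.2 and *Ddx58* at 14.8. Among the tested genes, the lowest E levels per kb were those of *Iigp1* at 0.232, *Oas2* at 0.0765 and *Mx1* at 0.0487. In RE, *Irf1* reached 55.5 ppm per kb.

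Of 63 further genes of the interferon pathway, 54 were in the table and 45 were tested. In E vs. M, 9 of them were called (6 higher, 3 lower in M), or 20.0% against 17.0% of all genes. In M vs. RE 3 were called (1 higher, 2 lower in RE), or 6.67% against 12.9%, and in E vs. RE 2, both higher in RE, or 4.44% against 9.37%. With library totals alone the E vs. M split was 2 higher and 4 lower: *Ifngr2*, *Jak1*, *Sp100* and *Sp110* were no longer called, at log2 fold changes of 0.79 to 0.89, and *Tyk2* was called lower. In M vs. RE 4 were then higher and 1 lower, with *Ifnlr1*, *Tlr3* and *Myd88* added and *Ifngr2* lost. The interferon genes that were present were scarcely covered. *Ifna1*, *Ifna2*, *Ifna5*, *Ifna6*, *Ifna12* and the type III genes *Ifnl2* and *Ifnl3* had no entry, so their coverage is unknown. *Ifnb1* had 1 to 4 reads' worth per library, *Ifng* 0 to 1.14, and *Ifna4* and *Ifna13* at most 5, while *Ifne* reached 9.32. *Ifnk* was the 1 ligand tested, at 3.38 to 15.7 reads' worth, and it was not called.

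Receptor chains differed from each other. *Ifngr2*, the signalling chain for interferon gamma, was at 40.5 and 37.9 ppm in E, 91.4 and 88.0 in M, and 41.9 and 47.5 in RE. M stood far above the other stages, with a log2 fold change of 1.19 in E vs. M (SE 0.13, adjusted p = 0.000463 by limma) and −1.01 in M vs. RE (adjusted p = 0.00127 by limma). *Ifnlr1*, the specific chain for type III interferon, listed as *Il28ra*, was at 8.35 and 14.5 ppm in E, 1.96 and 2.02 in M, and 4.56 and 5.70 in RE. M was lowest and RE lay below E, and M was 5.75-fold below E (log2 fold change −2.41, SE 0.28, adjusted p = 0.000584 by limma). *Ifngr1*, the other gamma chain, had a log2 fold change of 0.95 in E vs. M (limma adjusted p = 0.00679), *Ifnar1* of 0.60 (adjusted p = 0.0174 by limma) and *Ifnar2* of −0.23, none of them called. *Il10rb*, the second chain of the type III receptor, stayed between 28.2 and 33.7 ppm in all libraries and was not called.

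Among the kinases and signal transducers, *Jak1* was at 175 and 183 ppm in E, 390 and 375 in M, and 273 and 267 in RE, and rose in M (log2 fold change 1.10, adjusted p = 0.000469 by limma). *Tyk2* was at 102 and 89.9 ppm in E, 48.6 and 49.8 in M, and 65.0 and 60.9 in RE, and its log2 fold change of −0.96 in E vs. M just missed the fold limit (adjusted p = 0.00118 by limma). These partner kinases of the type I receptor thus had opposite orders, *Jak1* highest and *Tyk2* lowest in M. *Stat3* was called in E vs. RE, where it was higher in RE (log2 fold change 1.16, adjusted p = 0.00423 by limma). *Tlr3*, the endosomal receptor for double-stranded RNA, was at 159 and 151 ppm in E, 74.5 and 73.8 in M, and 149 and 143 in RE. Its M level was lower (log2 fold change −1.06, limma adjusted p = 0.000497), and in M vs. RE its log2 fold change was 0.98 (adjusted p = 0.000901 by limma), just under the fold limit.

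**Figure D3:**
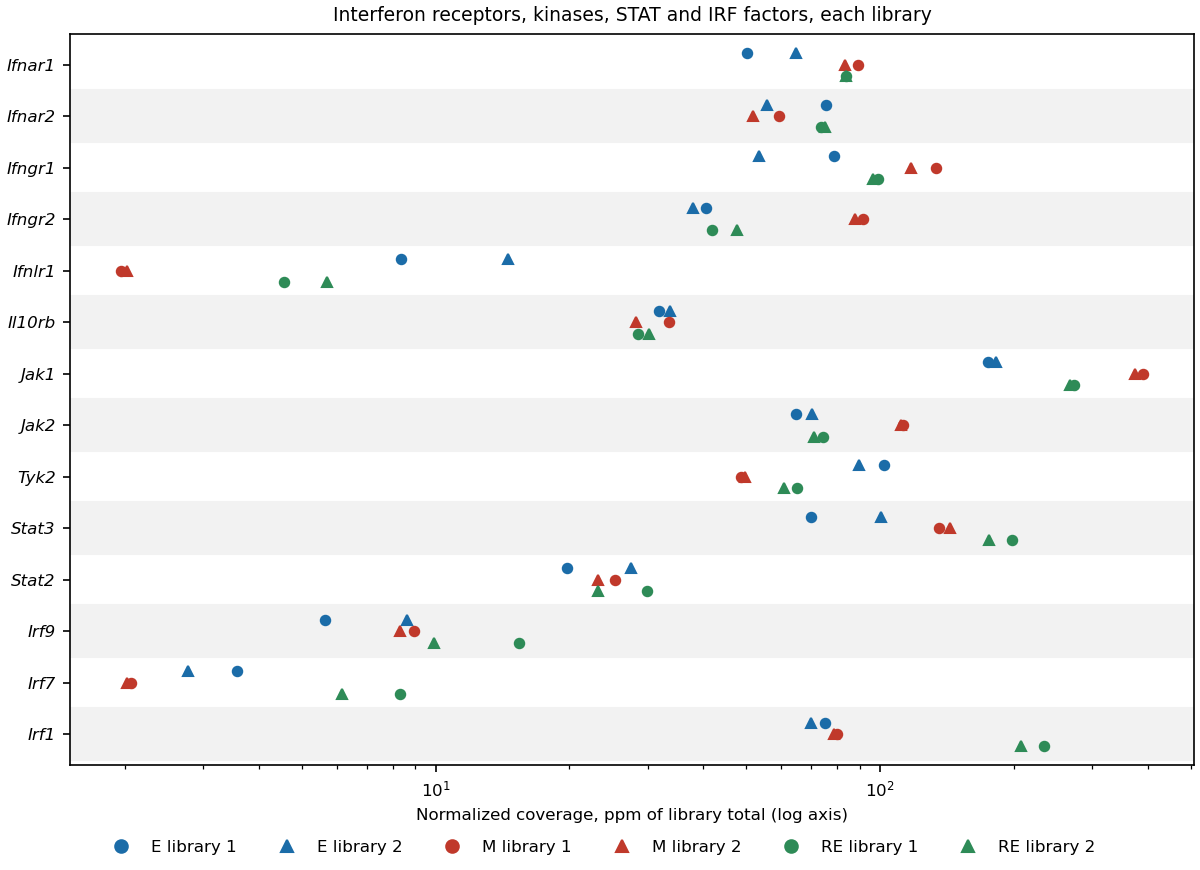
Level in each library (ppm, log axis) of receptors, kinases and transcription factors of the interferon pathway in E, M and RE, with 2 points per stage. *Ifngr2* and *Jak1* are highest in M, *Ifnlr1* and *Tyk2* are lowest there, and *Stat2* overlaps between the stages.

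Other inducible GTPases were also called in both directions, while the nuclear body genes that were called were higher in M. *Ifi47*, of the immunity-related GTPases, was at 17.6 and 14.6 ppm in E, 65.9 and 52.1 in M, and 18.1 and 15.4 in RE. Only M was high, with a log2 fold change of 1.86 in E vs. M (limma adjusted p = 0.000251) and −1.81 in M vs. RE (adjusted p = 0.000338 by limma). *Gbp4* was at 2.98 and 1.38 ppm in E, 0.570 and 0.315 in M, and 2.87 and 3.04 in RE. It was lowest in M, with log2 fold changes of −2.02 in E vs. M (limma adjusted p = 0.00601) and 2.53 in M vs. RE (adjusted p = 0.0028 by limma). *Gbp6* was at 2.19 and 3.65 ppm in E, 8.43 and 7.40 in M, and 8.79 and 7.04 in RE, and was higher than E both in M (log2 fold change 1.45, limma adjusted p = 0.00457) and in RE (log2 fold change 1.44, adjusted p = 0.00746 by limma). *Sp100* and *Sp110*, components of nuclear bodies, rose in M, with log2 fold changes of 1.12 and 1.13 (adjusted p = 0.00165 and 0.00554 by limma).

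With 2 libraries a stage, calls leaned on single libraries. The calls in E vs. M of *Ifi44*, *Ifit1*, *Parp14* and *Samd9l* and those in M vs. RE of *Ifit2*, *Ifit3* and *Irf1* held whichever library was left out. Without the first or the second M library, 5 and 7 genes were called in E vs. M, where 6.90% and 7.34% of all genes were. In M vs. RE, 3 and 4 genes were called without the first or second M library (5.24% and 5.62% of all genes) and 5 without either RE library (4.96% and 5.96%). In E vs. RE, 10 were called without either E library (12.4% and 17.1% of all genes), 3 without either M library (4.91% and 4.95%) and 1 without the second RE library (1.16%). Without the first RE library, 0 were called, where 0.320% of all genes were called by limma and 16 of the 41 genes then tested had an unadjusted p below 0.05. The shares of all genes moved in the same direction as the counts given here. In E vs. M without the second E library, the count and the share moved in opposite directions.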

How the data were processed

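RNA from 2 libraries each of E, M and RE stages of EpH4 was sequenced in 50-base reads. The authors mapped unique reads to mouse build NCBI-m37 with Bowtie and TopHat2 and deposited 1 table of coverage (signal), which holds sequenced bases summed per gene and not read counts; the step that summed them and its annotation are not given in the sources used here. Columns were assigned by stage and replicate number in their names.

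Coverage was scaled by TMM without weights (trims of 30% of log ratios and 5% of mean levels) and expressed in ppm. Genes that reached 500 bases in 2 or more libraries were fitted with limma 3.58.1 in R 4.3.3 on log2(ppm + 0.1), which understates changes of low genes, with all 6 libraries, group only and a trend. Differences are the later stage minus the earlier, so positive values lie with M against E and with RE elsewhere. Values given as -fold are ratios of the stage means in ppm, without the added 0.1. They therefore need not equal the log2 fold changes printed beside them. Adjusted p-values are Benjamini-Hochberg over 13893 genes. Levels of 3 reads' worth (150 bases) or fewer count as the floor, and depths cover counting error only. Scaling and fit were run on simulated data, with changes planted only in M and only in genes that were not low. That run does not cover low genes.

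The members and pathway lists were chosen with earlier results of these data known. All members are accounted for, with values in every library for called members and the 4 transcription factors, and all receptors and called genes of the pathway list are named; others named were chosen after their values were seen. Symbols were matched through RefSeq (GRCm38.p6), whose build differs from that of the files, so coordinates refer only to the RefSeq windows. Exon lengths came from GENCODE vM21. 2 pathway genes and 1 marker are not reported here and were left out of their lists.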

Additional observations from a re-analysis of the deposited data

How the results depend on the processing

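The counts of called genes were recomputed under other scalings, pseudocounts, filters, designs and thresholds. Counts of interferon-stimulated genes in E vs. M and M vs. RE stayed within 1.5 times of the main 14 and 9 except when libraries were left out. In E vs. RE the main 5 became 2 when only the 2 groups compared were fitted and 8 at an adjusted p of 0.05, while the share of all genes went from 9.37% to 3.78% and 13.6%. For the other pathway genes in M vs. RE, the main 3 became 5 with library totals, 5 with only the 2 groups compared, 6 with array weights, 6 at a fold change of 1.5 and 6 at an adjusted p of 0.05. In E vs. RE the main 2 became 1 with no filter, 0 with only the 2 groups compared (18 had an unadjusted p below 0.05 by limma), 4 at a fold change of 1.5 and 4 at an adjusted p of 0.05. Leaving out each library in turn gave 5 to 18 interferon-stimulated genes in E vs. M, 3 to 12 in M vs. RE and 0 to 10 in E vs. RE, and 2 to 11, 1 to 5 and 0 to 3 other pathway genes, the 0 arising without either M or either RE library, where 13 to 18 had an unadjusted p below 0.05 by limma.

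The labels do not say what the replicate numbers stand for, and deviations of same-numbered libraries correlated at 0.27 between E and M, 0.058 between E and RE and 0.12 between M and RE, so no pairing was taken as given. With the replicate number as a block, 15, 10 and 6 interferon-stimulated genes were called in E vs. M, M vs. RE and E vs. RE, and 9, 4 and 1 other pathway genes.

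No called gene changed direction. Outside the fits without a library, 17 of the 28 calls held throughout. *Isg15* in E vs. M was lost with a pseudocount of 1 ppm and with only the 2 groups compared, *Gbp3* and *Zbp1* in E vs. M with the latter and with library totals, *Ifit3* in E vs. M with that pseudocount, *Parp9* and *Parp12* in E vs. M with library totals, *Iigp1* in M vs. RE with no filter, *Oas3* in E vs. M with array weights, *Oasl1* in E vs. RE with only the 2 groups compared and with array weights, and *Lgals3bp* and *Parp14* in E vs. RE with only the 2 groups compared. The causes were not tested. Precision is limited by having 2 libraries a stage, and for *Oas2*, *Mx1*, *Iigp1* and the interferon genes also by low coverage.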
